A study of Mus musculus with 6 samples.

Results

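The collagen genes are the genes for the chains of collagen proteins. They were taken as all protein-coding rows of the count table whose symbol reads Col, a number, a and a number. This gave 44 genes of 42747 rows, each found once. By the structure of the collagens they make, 11 genes are fibrillar, 6 are the collagen IV genes of basement membranes, and 27 are others. The others comprise 6 genes of beaded filament collagen VI, 9 of fibril-associated collagens with interrupted triple helices (FACIT), 3 of short-chain network collagens, 2 of multiplexins, 4 of transmembrane collagens, and 3 genes of collagens VII, XXVI and XXVIII.

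Polyadenylated RNA was sequenced from whole testes of mouse embryos at E16.5, in 3 libraries labelled cKO and 3 labelled WT, with 3 mice in each group per the series design. The title names CK1α (the kinase made from Csnk1a1) and Sertoli cells, so cKO was read as its conditional knockout in these cells. The labels give no Cre driver, floxed allele or strain, and do not say whether WT animals carry a Cre or a floxed allele. Each library holds RNA of the whole organ, so fewer cells of a type and less RNA per cell cannot be told apart.

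A collagen is built of chains with glycine at regular steps, wound into a triple helix. Fibrillar collagens assemble into tensile fibrils of connective tissue, and in a fetal testis these lie mainly in the interstitium between the cords. Collagen IV forms the sheet-like network of basement membranes, which surround the testis cords between Sertoli cells and peritubular myoid cells and also underlie vessels. FACIT collagens sit on the surface of fibrils, collagen VI forms fine filaments around cells, and transmembrane collagens stay anchored in the plasma membrane.

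Library totals ran from 15092619 to 17431546 counts in cKO and from 15281569 to 16646569 in WT. Csnk1a1 was at 395, 404 and 377 CPM (counts scaled to library size) in cKO libraries 1, 2 and 3, against 370, 395 and 347 CPM in WT libraries 1, 2 and 3. The labels do not say which exons were removed, so this level does not check them. Markers of the testis were present in both groups, and 11 of 13 Sertoli cell markers were lower in cKO by edgeR, as were 1.84% of all tested genes, with summed levels of 1218 to 1613 CPM in cKO and 2885 to 3738 CPM in WT. Of 11 markers of interstitial and stromal progenitors, edgeR called 2 higher (1.5% of all tested genes), with sums of 5334 to 6095 CPM in cKO and 3645 to 4710 CPM in WT. Their part in the collagen results was not tested.

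Promoter windows are shown for the 3 collagen genes that were higher in cKO and for Col27a1, the 1 fibrillar gene whose cKO and WT libraries did not overlap. Each is the stretch of 150 bases that ends just before the RefSeq start, on the plus strand of GRCm38.p6, 5′ to 3′. Capitals mark matches, on either strand, to the TATA box (letters TATAAA), to the box spelled CCAAT, to the GC box (letters GGGCGG) or to the core of the TCF/LEF motif (letters CTTTGA). These genes were chosen after their values were seen.
Col16a1, chr4:130047690-130047839: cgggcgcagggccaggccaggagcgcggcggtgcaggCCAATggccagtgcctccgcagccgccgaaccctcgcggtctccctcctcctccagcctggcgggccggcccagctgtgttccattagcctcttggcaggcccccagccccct
Col8a2, chr4:126286644-126286793: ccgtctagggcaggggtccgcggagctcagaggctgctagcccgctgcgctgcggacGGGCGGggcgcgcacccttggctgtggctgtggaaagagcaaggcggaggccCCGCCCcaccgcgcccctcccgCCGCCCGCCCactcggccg
Col23a1, chr11:51289770-51289919: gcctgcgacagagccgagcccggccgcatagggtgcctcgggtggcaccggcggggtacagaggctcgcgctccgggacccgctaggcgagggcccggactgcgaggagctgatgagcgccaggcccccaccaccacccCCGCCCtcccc
Col27a1, chr4:63215262-63215411: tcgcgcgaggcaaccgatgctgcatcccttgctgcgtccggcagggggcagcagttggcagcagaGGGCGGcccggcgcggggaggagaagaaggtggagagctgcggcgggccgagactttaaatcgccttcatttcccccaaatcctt

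Windows were found for 35 of the 44 collagen genes, 38 windows in all, since some genes have more than 1 start. GC boxes were the most frequent of the motifs searched. They stood in 19 of the 38 collagen windows (50%), against 28.6% of 32851 windows of all genes. The Col8a2 window held 4 GC box matches, a pair of which overlap, the Col23a1 and Col27a1 windows 1 each, and the Col16a1 window none. CCAAT boxes were in 8 collagen windows (21.1%, against 24.5% of all windows) and TATA boxes in 4 (10.5%, against 7.57%). The TCF/LEF core was in 3 collagen windows (7.89%, against 7.93% of all), and in none of the 4 shown. In the GRCm38 annotation an exon of Gm12963 covers the start of the Col16a1 window. A match describes letters and is no evidence of a bound site.

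Collagen messages were abundant in both groups. They made up 2.29%, 3.52% and 3.39% of all counts in cKO libraries 1, 2 and 3, against 1.80%, 2.62% and 2.44% in WT libraries 1, 2 and 3. The highest WT library lay above the lowest cKO library, so the groups overlapped. Compared per length, in the deposited FPKM (fragments over gene length and library size), 8 of the 44 genes had a mean of at least 100 FPKM over the 6 libraries, 15 lay from 10 to under 100, 16 from 1 to under 10 and 5 below 1. Col1a1, Col3a1 and Col1a2 stood at the top, and together held 55.0% ± 5.55 of the summed collagen FPKM in cKO and 47.8% ± 2.80 in WT (SD, n = 3 each). Col6a1, Col4a1, Col6a2 and Col4a2 followed, then Col5a1.

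**Figure D1:**
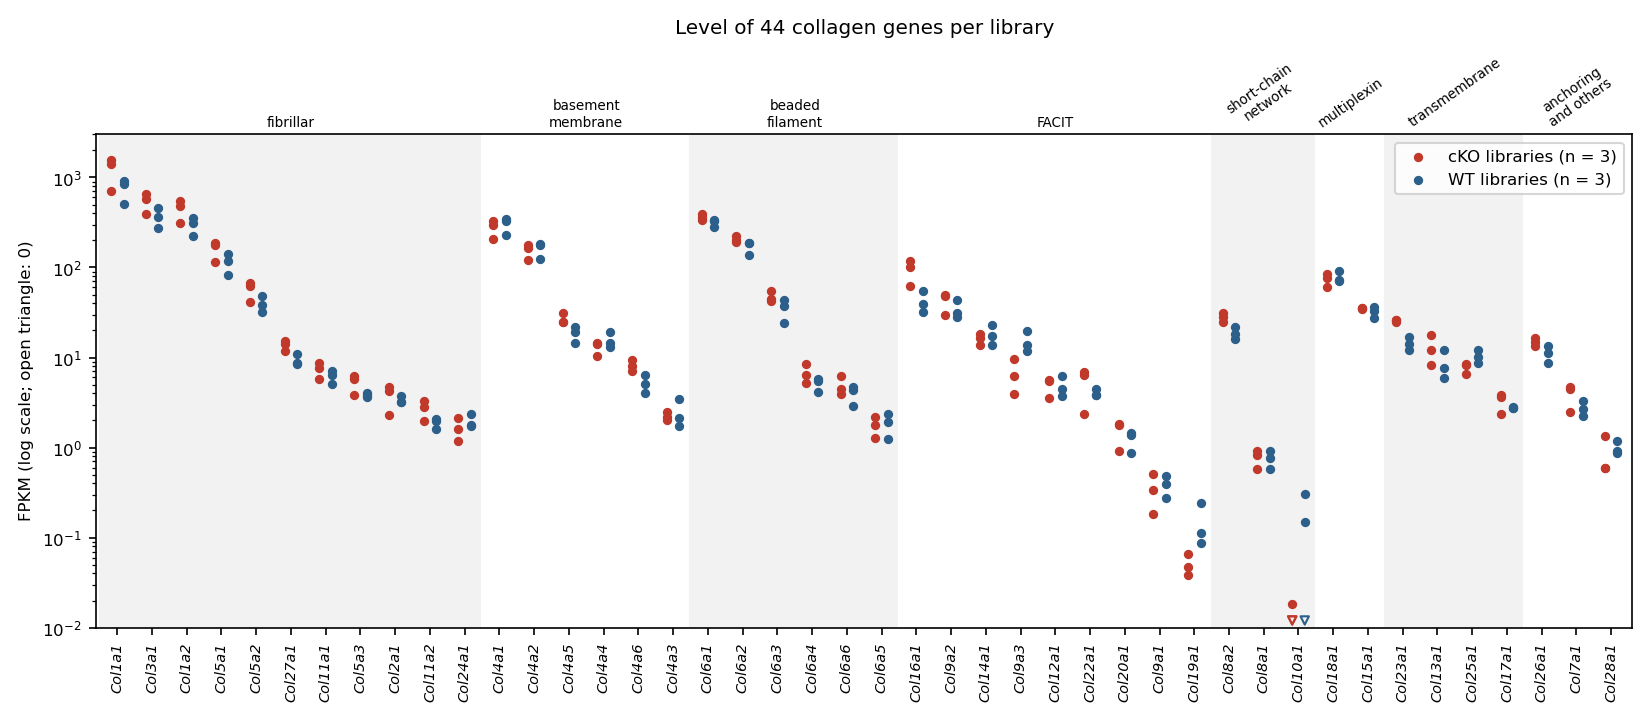
FPKM (log scale) of the 44 collagen genes in the 3 cKO (red) and 3 WT (blue) libraries, grouped by class and ordered by mean level within a class; open triangles mark libraries listed at 0. Col1a1 reaches 1558 FPKM in cKO library 2, while Col10a1 is listed at 0 in 3 libraries.

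Among 18383 genes tested with edgeR's quasi-likelihood test, 3.35% were called at a Benjamini-Hochberg adjusted p under 0.05, with 1.5% higher and 1.84% lower in cKO. Of the 44 collagen genes, 42 passed the filter on low counts. In cKO testes, 3 of these 42 were higher (Col16a1, Col8a2 and Col23a1), 1 was lower (Col9a3) and 38 were not called. None of the 4 is fibrillar or a collagen IV gene. The median log2 fold change was 0.28 over the 42 genes and 0.00 over all tested genes, and 71.4% of the 42 had a positive value, against 50.4% of all tested genes.

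The classes had different medians. The 11 fibrillar genes had a median log2 fold change of 0.52, the 6 collagen IV genes -0.09 and the 25 tested others 0.27. Positive values were found for 10 of 11 fibrillar genes, 2 of 6 collagen IV genes and 18 of 25 others. These are descriptions of genes measured in the same libraries, not tests of the classes. The collagen IV median took the other sign without cKO library 1 (0.07), without WT library 2 (0.01) and without WT library 3 (0.11). With 1 library left out the fibrillar median stayed between 0.40 and 0.67.

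**Figure D2:**
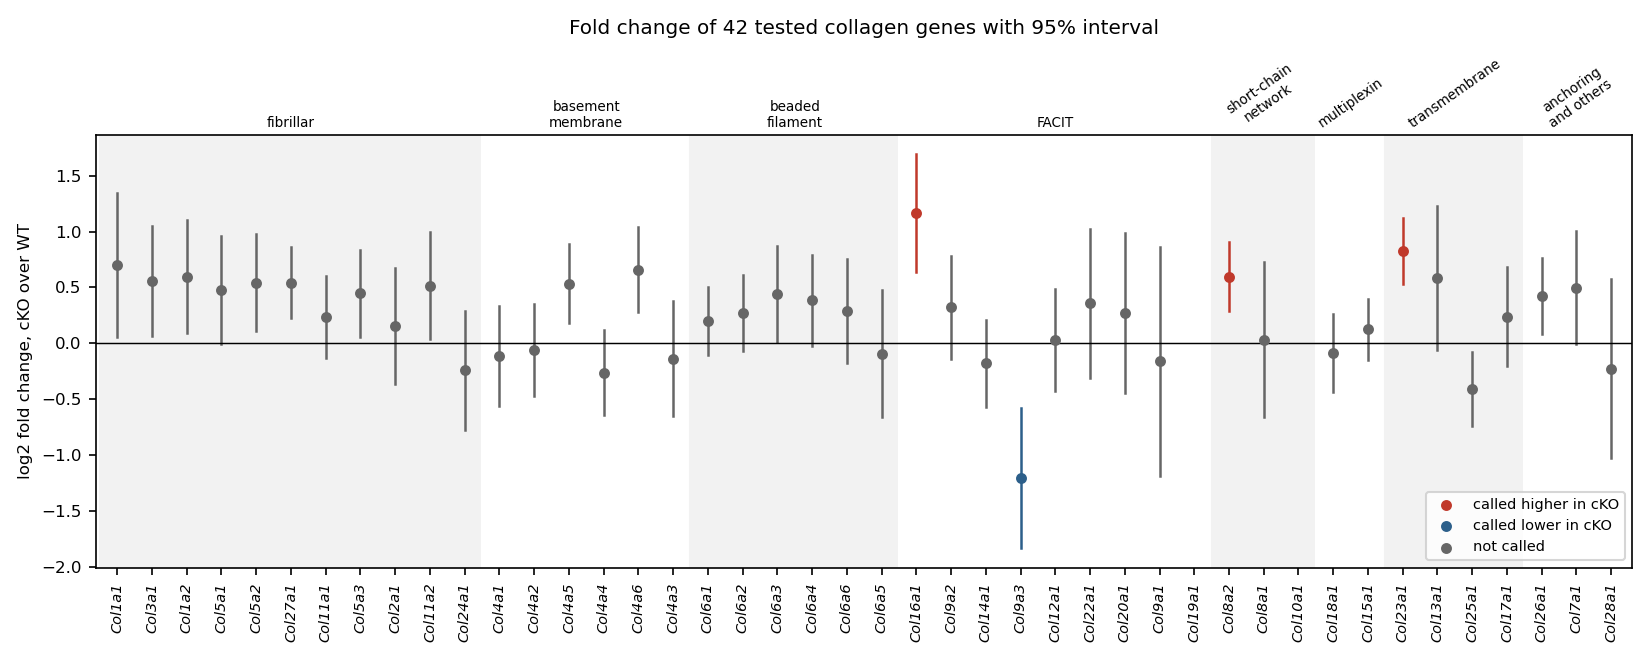
Log2 fold change of cKO over WT for the 42 tested collagen genes from edgeR, with 95% intervals; red marks genes called higher, blue the gene called lower and grey genes not called. Fibrillar genes lie mostly above 0 (10 of 11), with intervals that are wide beside the values, while Col16a1 (1.17) and Col9a3 (-1.20) stand at opposite ends.

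The fibrillar collagens lead the list by level. Col1a1 encodes the alpha1 chain of collagen I, the main collagen of most connective tissue. It was at 708, 1558 and 1393 FPKM in cKO libraries 1, 2 and 3, against 502, 908 and 836 FPKM in WT libraries 1, 2 and 3. In both groups the library numbered 1 was the lowest, and cKO library 1 fell below 2 of the 3 WT libraries. The log2 fold change was 0.70 (SE 0.294, 95% interval 0.05 to 1.35), which edgeR did not call (adjusted p = 0.274).

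Col1a2, the alpha2 chain of the same protein, was at 313, 550 and 479 FPKM in cKO and at 221, 352 and 312 FPKM in WT. cKO library 1 lay below the highest WT library, so the groups overlapped (edgeR log2 fold change 0.60, SE 0.231, adjusted p = 0.232). Col3a1, which forms the fibrils of extensible tissues together with collagen I, was at 396, 654 and 572 FPKM in cKO and at 277, 454 and 368 FPKM in WT (0.56, SE 0.224, edgeR adjusted p = 0.25), again with cKO library 1 below the highest WT library. With 1 library left out, the value of Col1a1 ran from 0.48 to 0.97, and it was called in 3 of 15 alternative fits, as was Col1a2, against 2 for Col3a1.

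Ratios between fibrillar chains overlapped between the groups. The FPKM ratio of Col1a1 to Col1a2 was 2.67 ± 0.355 in cKO and 2.51 ± 0.215 in WT (SD, n = 3 each). Collagen I carries a pair of alpha1 chains for each alpha2 chain, but the ratio here depends on the lengths used by the authors, 6546 bases for Col1a1 and 12427 for Col1a2. Col1a1 to Col3a1 stood at 2.20 ± 0.361 in cKO and 2.03 ± 0.232 in WT. For neither ratio did the groups separate (exact permutation test, two-sided, p = 0.6 for each).

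The other 8 fibrillar genes ran from -0.24 (Col24a1) to 0.54 (Col27a1) on the log2 scale, and none was called (edgeR adjusted p from 0.0725 to 0.812). Col5a1 and Col5a2, chains of the collagen V that starts fibril growth, were at 0.48 and 0.54. Col27a1 was at 11.7, 14.1 and 15.3 FPKM in cKO and at 8.56, 10.97 and 8.59 FPKM in WT. It was the 1 fibrillar gene with every cKO library above every WT library, an arrangement that 10.7% of all tested genes showed (edgeR log2 fold change 0.54, SE 0.144, adjusted p = 0.0725). Col2a1, the main fibrillar collagen of cartilage, was at 2.33, 4.22 and 4.76 FPKM in cKO and at 3.71, 3.25 and 3.19 FPKM in WT. At an unadjusted p under 0.05, 7 of the 11 fibrillar genes were higher and none lower, against 7.75% and 8.03% of all tested genes. DESeq2 called 1 of the 11 higher (2.87% of all tested genes) and limma-voom none (1.46%).

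The collagen IV chains are encoded in head-to-head pairs. Col4a1 and Col4a2 make the most widespread form of the basement membrane network. They lie head to head on chromosome 8 and share 22 bases at their starts in the files. Col4a1 was at 209, 328 and 297 FPKM in cKO and at 228, 343 and 331 FPKM in WT, with overlapping groups (edgeR log2 fold change -0.12, 95% interval -0.56 to 0.33, adjusted p = 0.836). Col4a2 was at 123, 179 and 166 FPKM in cKO and at 125, 182 and 179 FPKM in WT (-0.06, 95% interval -0.47 to 0.35, edgeR adjusted p = 0.913). Both had their lowest value of each group in the library numbered 1.

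Col4a5 and Col4a6 form another head-to-head pair and lie on the X chromosome. Col4a5 was at 24.8, 31.4 and 24.6 FPKM in cKO and at 14.5, 21.8 and 19.3 FPKM in WT. All 3 cKO libraries exceeded the WT libraries (edgeR log2 fold change 0.53, SE 0.161, adjusted p = 0.116). Col4a6 was at 8.00, 9.42 and 7.09 FPKM in cKO and at 4.04, 6.38 and 5.04 FPKM in WT, again without overlap (0.66, SE 0.174, edgeR adjusted p = 0.0728). DESeq2 called both genes higher (adjusted p = 0.0406 for Col4a5 and 0.0148 for Col4a6), whereas limma-voom did not.

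Col4a3 and Col4a4 join with Col4a5 in the network of the kidney filter. Col4a4 was at 14.3, 10.4 and 14.5 FPKM in cKO and at 13.1, 14.4 and 19.3 FPKM in WT (edgeR log2 fold change -0.26, SE 0.172, adjusted p = 0.511). Col4a3 was at 2.47, 2.04 and 2.20 FPKM in cKO and at 2.15, 1.72 and 3.49 FPKM in WT (-0.14, SE 0.234, edgeR adjusted p = 0.829). Both ranges overlapped.

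Chain proportions were also computed across pairs and classes. Col4a5 to Col4a1 stood at 0.118, 0.0958 and 0.0828 in cKO libraries, against 0.0636, 0.0636 and 0.0582 in WT libraries. Col1a1 to Col4a1 stood at 3.38, 4.75 and 4.69 in cKO and at 2.20, 2.65 and 2.53 in WT. The groups did not overlap for either. The two-sided exact permutation p was 0.1 for each, the smallest that 3 against 3 libraries can give, and 0.367 after adjustment over the 11 chain ratios computed. Col4a1 to Col4a2 was 1.78 ± 0.0632 in cKO and 1.86 ± 0.0313 in WT (SD, n = 3 each; exact permutation p = 0.2).

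Levels were also summed by class. Fibrillar genes added up to 1602, 3047 and 2728 FPKM in cKO and to 1140, 1933 and 1699 FPKM in WT, with overlap through cKO library 1. Collagen IV genes added up to 381, 560 and 511 FPKM in cKO and to 387, 569 and 557 FPKM in WT. The collagen IV share of all collagen FPKM was 12.4% ± 0.700 in cKO and 17.3% ± 0.597 in WT (SD, n = 3 each), with no overlap between libraries. The fibrillar share was 61.4% ± 5.48 in cKO and 53.9% ± 2.81 in WT, and that of the others 26.3% ± 4.86 in cKO and 28.8% ± 2.62 in WT, both with overlap. No p-value is given for these sums, since the classes were chosen with results known.

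**Figure D3:**
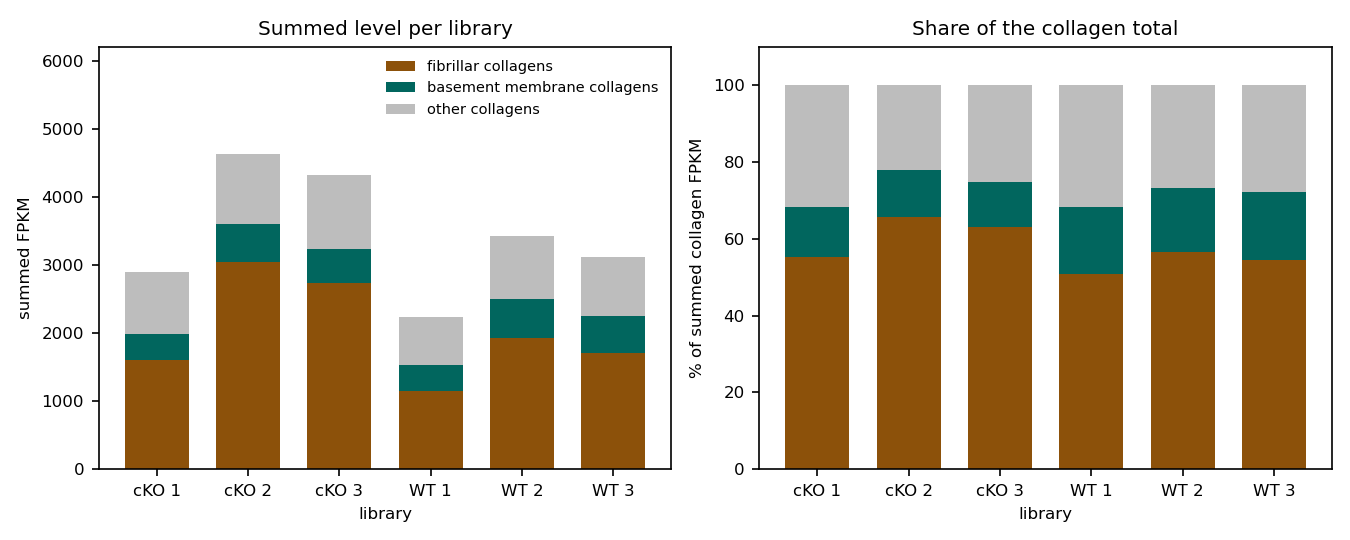
Summed FPKM of fibrillar, collagen IV (basement membrane) and other collagen genes in each library (left), and the share of each in the collagen total in percent (right). The collagen IV share averages 12.4% in the 3 cKO libraries and 17.3% in the 3 WT libraries, while the totals of both groups are lowest in the libraries numbered 1.

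Of the other 27 genes, the 3 that rose and the 1 that fell were in this group. Col23a1 encodes a transmembrane collagen. It was at 26.4, 26.2 and 24.7 FPKM in cKO and at 12.1, 17.1 and 14.3 FPKM in WT. The cKO libraries lay close together and above all WT libraries, and Col23a1 rose 1.77-fold (edgeR log2 fold change 0.83, SE 0.135, adjusted p = 0.00611). It was the 1 collagen gene called in all 15 alternative fits.

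Col16a1, a FACIT gene whose product associates with fibrils and cell adhesion sites, had the largest rise of the 42. It was at 63.0, 118 and 102 FPKM in cKO and at 32.0, 54.5 and 39.5 FPKM in WT, without overlap although the lowest cKO library (63.0) was near the highest WT library (54.5). It was 2.24-fold higher in cKO (edgeR log2 fold change 1.17, SE 0.24, adjusted p = 0.0225). Col8a2, a chain of the network collagen of Descemet's membrane in the eye, was at 24.8, 31.6 and 27.9 FPKM in cKO and at 16.03, 21.6 and 18.05 FPKM in WT, again without overlap (1.51-fold higher by edgeR, with a log2 fold change of 0.59, SE 0.141 and adjusted p = 0.0445). Col8a1, which encodes the partner chain, was far rarer at 0.768 ± 0.167 FPKM in cKO and 0.750 ± 0.163 FPKM in WT (SD, n = 3 each; log2 fold change 0.03, edgeR adjusted p = 0.971).

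Col9a3 was the 1 collagen gene that fell. It encodes a chain of collagen IX, a FACIT of cartilage that is also known from the cords of the developing mouse testis. It was at 3.90, 9.58 and 6.26 FPKM in cKO, against 13.8, 19.7 and 11.8 FPKM in WT, so every cKO library lay below every WT library. The log2 fold change was -1.20 (SE 0.285, 95% interval -1.83 to -0.58, edgeR adjusted p = 0.0445). Neither partner chain was called. Col9a2 was at 29.7, 49.9 and 48.7 FPKM in cKO and at 31.0, 43.3 and 27.9 FPKM in WT (0.32, SE 0.21, edgeR adjusted p = 0.507), and Col9a1 was below 1 FPKM in every library. The ratio of Col9a3 to Col9a2 was 0.151 ± 0.0359 in cKO and 0.442 ± 0.0165 in WT (SD, n = 3 each). The exact permutation p was 0.1, the smallest possible, and 0.367 after adjustment over the 11 chain ratios. Col9a3 overlaps Tcfl5 on the opposite strand by 234 bases in the files, and with no strand setting stated reads from that stretch cannot be assigned to 1 of them. Tcfl5 had a log2 fold change of -0.17 (edgeR adjusted p = 0.693).

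**Figure D4:**
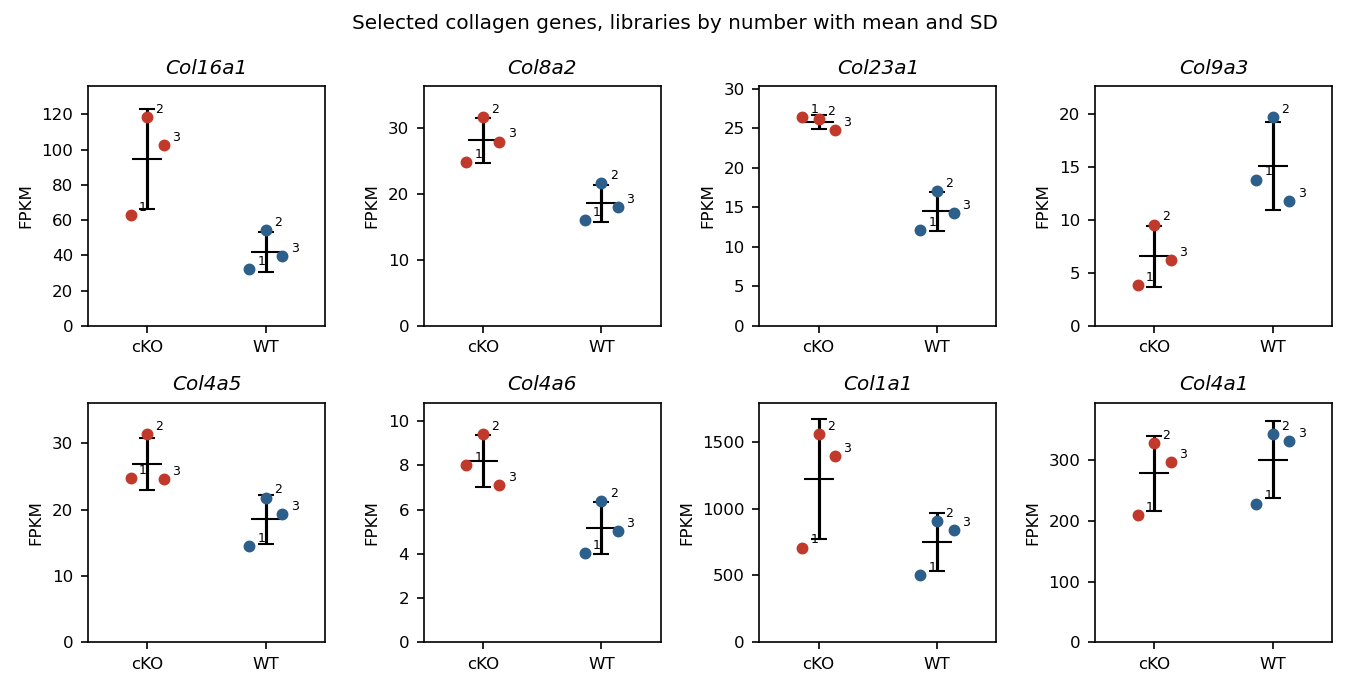
FPKM per library of 8 collagen genes, with library numbers beside the points and bars for the mean and SD of 3 libraries; each axis starts at 0. The upper row holds the 4 genes called by edgeR (Col16a1, Col8a2 and Col23a1 higher, Col9a3 lower in cKO); in the lower row Col4a5 and Col4a6 separate without a call, and Col1a1 and Col4a1 overlap.

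Apart from that of Col23a1, these calls depended on single libraries. DESeq2 called 6 collagen genes higher and 1 lower (2.87% and 3.12% of all tested genes), and limma-voom 3 and 1 (1.46% and 1.82%). By edgeR the count was 10 higher without cKO library 1, but only 1 higher (Col23a1) and 0 lower without cKO library 3, without WT library 1 or without WT library 3. Calls over all tested genes also varied widely with the library left out, as given in the last section. Whether collagen calls varied more than those was not tested. Col9a3 was called in 8 of 15 alternative fits, Col8a2 in 7 and Col16a1 in 10, and Col9a3 and Col8a2 also lost their calls without WT library 2, as did Col8a2 without cKO library 2.

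Collagen VI genes, whose product links cells to the surrounding matrix, were not called. Col6a1 was at 368, 333 and 390 FPKM in cKO and at 280, 331 and 337 FPKM in WT (edgeR log2 fold change 0.20, SE 0.14, adjusted p = 0.543). Col6a2, its neighbour on chromosome 10, was at 191, 203 and 222 FPKM in cKO and at 139, 186 and 186 FPKM in WT (0.27, SE 0.154, edgeR adjusted p = 0.441). The 6 collagen VI genes ran from -0.09 (Col6a5) to 0.44 (Col6a3).

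The multiplexins Col15a1 and Col18a1 are collagens of basement membrane zones. Col18a1, whose C-terminal fragment is endostatin, was at 60.3, 84.5 and 77.4 FPKM in cKO and at 71.9, 91.7 and 71.7 FPKM in WT (edgeR log2 fold change -0.09, 95% interval -0.44 to 0.26, adjusted p = 0.846). Col15a1 was at 34.7, 35.2 and 35.7 FPKM in cKO and at 27.5, 33.0 and 35.9 FPKM in WT (0.13, 95% interval -0.15 to 0.40, edgeR adjusted p = 0.684). Like Col4a1 and Col4a2, both had overlapping groups. Col18a1 shares 8995 bases with Slc19a1 on the opposite strand (log2 fold change of Slc19a1 0.10, edgeR adjusted p = 0.808).

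Of the remaining transmembrane collagens, Col13a1, found at neuromuscular junctions and adhesion sites, was at 8.25, 17.96 and 12.3 FPKM in cKO and at 7.56, 12.2 and 5.88 FPKM in WT (edgeR log2 fold change 0.58, SE 0.293, adjusted p = 0.375). Col25a1 was the 1 tested collagen gene besides Col9a3 with every cKO value below every WT value, which 10.9% of all tested genes showed. It was at 8.29, 6.55 and 8.50 FPKM in cKO and at 8.66, 12.1 and 10.1 FPKM in WT (-0.41, SE 0.151, edgeR adjusted p = 0.205). Col26a1 was at 13.4, 16.3 and 14.9 FPKM in cKO and at 8.68, 13.3 and 11.2 FPKM in WT (0.42, SE 0.155, edgeR adjusted p = 0.207). Col7a1, the anchoring fibril collagen of skin, was at 2.51, 4.44 and 4.68 FPKM in cKO and at 2.65, 3.29 and 2.26 FPKM in WT (0.50, SE 0.228, edgeR adjusted p = 0.319).

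Across the 42 tested genes, 8 had all cKO libraries above all WT libraries and 2 all below, against 10.7% and 10.9% of all tested genes. The 8 were the 3 genes called higher with Col4a5, Col4a6, Col6a2, Col26a1 and Col27a1. The 2 genes that did not pass the filter were rare. Col19a1 had 5, 4 and 8 counts in cKO libraries and 27, 9 and 13 in WT libraries. Col10a1, a collagen of growth plate cartilage, had 0, 0 and 1 counts in cKO and 0, 7 and 16 in WT, and lies within Nt5dc1 on the opposite strand, so its few reads may belong to either gene.

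Among the collagen genes, the libraries numbered 1 were often the lowest of their group. The genes share the same libraries, and the matching share over all tested genes is not given. The lowest cKO value was that of library 1 in 10 of 11 fibrillar genes, 2 of 6 collagen IV genes and 16 of 25 others. The lowest WT value was that of library 1 in 7 of 11, 5 of 6 and 15 of 25. The highest library of a gene was 1.65 times the lowest among cKO and 1.42 times among WT in the median fibrillar gene, and 1.36 times among cKO and 1.503 times among WT in the median collagen IV gene. Without both libraries numbered 1, a fit added after the values were seen, 3 collagen genes were called higher and 0 lower, and the medians were 0.59 (fibrillar), -0.09 (collagen IV) and 0.20 (others). Over all tested genes that fit also called fewer higher than the fit to all libraries, as given in the last section.

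The stromal marker sum was set beside the fibrillar sum in each library. In cKO libraries 1, 2 and 3 the fibrillar genes summed to 14191, 26143 and 23379 CPM beside stromal marker sums of 5944, 5334 and 6095 CPM. In WT libraries they summed to 10169, 16834 and 14721 CPM beside 3645, 4710 and 4125 CPM. The ratio of fibrillar to stromal sums was 2.39, 4.90 and 3.84 in cKO and 2.79, 3.57 and 3.57 in WT, with overlap. Markers of cartilage summed to 46.5 to 55.8 CPM in cKO and 38.4 to 56.2 CPM in WT, and those of bone to 2.04 to 4.02 CPM in cKO and 3.04 to 4.77 CPM in WT. Summed endothelial markers stood at 621 to 722 CPM in cKO and 575 to 644 CPM in WT, and those of peritubular myoid cells at 584 to 670 CPM in cKO and 564 to 703 CPM in WT. In the endothelial list edgeR called 1 of 9 higher, and in the peritubular myoid list 1 of 8, against 1.5% of all tested genes. Fetal Leydig cell markers summed to 5030 to 6875 CPM in cKO and 3804 to 4529 CPM in WT. None of these 7 was called by edgeR, though all 7 log2 fold changes were positive, and DESeq2 called 2 higher (2.87% of all tested genes). Germ cell markers summed to 527 to 951 CPM in cKO and 768 to 1065 CPM in WT. Mesonephric duct markers summed to 77.9 to 97.7 CPM in cKO and 64.8 to 76.2 CPM in WT. Of these 7 markers edgeR called 1 higher, Emx2, and none lower, against 1.5% and 1.84% of all tested genes. Emx2 was at 35.2, 23.4 and 28.8 CPM in cKO and at 15.4, 12.9 and 13.5 CPM in WT. Krt8 went the other way (log2 fold change -0.56, not called). Mesothelial markers summed to 282 to 291 CPM in cKO and 236 to 245 CPM in WT. Most of that sum was Wt1, which is also among the Sertoli cell markers. Wt1 was at 217, 198 and 185 CPM in cKO and 177, 171 and 164 CPM in WT. Macrophage markers summed to 54.5 to 66.9 CPM in cKO and 49.7 to 65.4 CPM in WT. The part of these cell types in the collagen results was not tested.

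**Figure D5:**
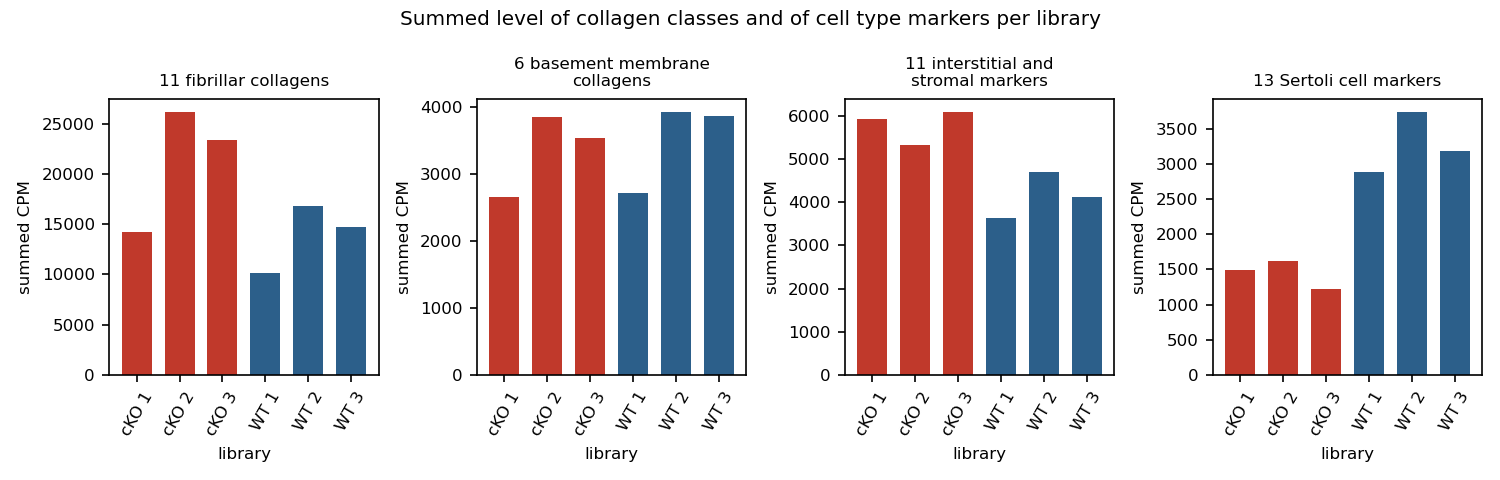
Summed CPM per library of the fibrillar and collagen IV genes and of marker lists for interstitial and stromal cells and for Sertoli cells; cKO libraries are red and WT libraries blue, and each axis starts at 0. Stromal marker sums of cKO (5334 to 6095 CPM) lie above those of WT (3645 to 4710 CPM), while the fibrillar sum of cKO library 1 (14191 CPM) lies between WT values.

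Of 20 tested genes that fold and modify collagen chains, 1 was higher and none lower, against 1.5% and 1.84% of all tested genes. That gene was P3h3, which encodes a member of the prolyl 3-hydroxylase family that acts in lysyl hydroxylation, at 52.7, 61.5 and 58.5 FPKM in cKO and 37.2, 43.2 and 34.9 FPKM in WT (edgeR log2 fold change 0.58, SE 0.125, adjusted p = 0.0279). The groups did not overlap. The abundant members Serpinh1, the collagen chaperone HSP47, and P4hb, the beta subunit of prolyl 4-hydroxylase, stood at 0.13 (edgeR adjusted p = 0.733) and 0.21 (edgeR adjusted p = 0.505).

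Among 14 genes of propeptide processing and crosslinking, Bmp1 was higher and none was lower, where the shares of all tested genes were again 1.5% and 1.84%. Bmp1 encodes the protease that removes the C-terminal propeptide of fibrillar procollagens. It was at 117, 127 and 139 FPKM in cKO and at 76.1, 98.3 and 76.1 FPKM in WT, without overlap (edgeR log2 fold change 0.61, SE 0.14, adjusted p = 0.0388). Pcolce, which enhances that cleavage, stood at 0.18 (edgeR adjusted p = 0.68). The calls of P3h3 and Bmp1 were each lost in 5 of 15 alternative fits, among them those without cKO library 3, WT library 1 or WT library 3.

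None of 16 tested genes of collagen degradation and its inhibitors was called by edgeR or limma-voom, while DESeq2 called 1 higher (2.87% of all tested genes). At an unadjusted p under 0.05 there were 5 higher and 0 lower, against 7.75% and 8.03% of all tested genes. Mmp2, a gelatinase, was at 203, 189 and 221 FPKM in cKO and at 129, 158 and 152 FPKM in WT. The groups did not overlap, but the difference was not called (edgeR log2 fold change 0.48, SE 0.131, adjusted p = 0.0839). Timp2, an inhibitor that also takes part in activating Mmp2, stood at 0.40 (edgeR adjusted p = 0.167).

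Of 9 tested collagen receptor genes, 1 was lower and none higher, against 1.84% and 1.5% of all tested genes. Adgrg1, an adhesion receptor known to bind collagen III, was at 30.7, 29.5 and 24.3 FPKM in cKO and at 66.3, 82.2 and 85.9 FPKM in WT. Every cKO library lay below every WT library, and Adgrg1 fell by 1.48 on the log2 scale (SE 0.142, edgeR adjusted p = 0.000232), a call kept in all 15 alternative fits. Itgb1, the beta1 subunit shared by the collagen-binding integrins, was at 129 ± 8.75 FPKM in cKO and 127 ± 11.1 FPKM in WT (SD, n = 3 each; log2 fold change 0.01, edgeR adjusted p = 0.977). Over these 4 lists, DESeq2 called 6 genes higher and 2 lower, and edgeR 2 and 1. Over all tested genes DESeq2 called 2.87% higher and 3.12% lower, and edgeR 1.5% and 1.84%.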

How the data were processed

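Poly-A RNA of whole mouse testes at E16.5 was measured. The submitters' processing notes name HISAT2 2.0.5 and GRCm38; neither a counting tool nor a strand setting is stated in the labels. Gene identifiers and positions in the files are those of C57BL/6NJ, whereas promoter sequences come from RefSeq on GRCm38.p6, and the assemblies were kept apart. The deposited counts are whole reads per gene without normalisation. FPKM were computed by the authors, and the library size recovered from them was 0.968 to 1.05 times the summed counts, so levels depend on the authors' gene lengths.

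The 18383 genes kept by filterByExpr were fitted with edgeR 4.0.16 in R 4.3.3 (TMM, glmQLFit and glmQLFTest, group as the only term), and p-values were adjusted by Benjamini-Hochberg across them all, with a threshold of 0.05. CPM used TMM-scaled totals. SE is the log2 fold change divided by the square root of F. The method was tested on simulated data. Totals of 15092619 to 17431546 counts make counting error small for all but the rare collagens. Replicate libraries were distinct, with a chi-square per degree of freedom from 12.2 to 37.4 within groups. The labels do not state more on the origin of replicates than 3 mice a group.

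The collagen genes, their classes and all lists were chosen with earlier results of these data known. Of 196 list entries 4 were not matched and are not analysed here, and 2 were matched through a RefSeq synonym. By rule, full values are given for called collagens, the most abundant pair of each class, partner chains, and called or most abundant genes of the companion lists. Col27a1, Col25a1, Col5a1, Col5a2, Col2a1, Col24a1, Col6a3, Col6a5, Col9a1, Col10a1, Col19a1, Tcfl5, Nt5dc1 and Slc19a1 were named after their values were seen. So were the markers Emx2, Krt8 and Wt1. The 15 alternatives were edgeR with DESeq2 size factors or with library totals alone, the Wald test of DESeq2 1.42.0, voom from limma 3.58.1, limma-trend on log2 FPKM with a pseudocount of 0.1 or of 1, no filter beyond 1 count, a mean of at least 1 CPM, a replicate block, and each library left out.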

Additional observations from a re-analysis of the deposited data

How the results depend on the processing

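Over all tested genes, 276 were called higher and 339 lower. DESeq2 called 527 and 574, limma-trend on log2(FPKM + 0.1) 149 and 223, limma-trend on log2(FPKM + 1) 156 higher, and the fit with no filter beyond 1 count 613 and 651. With 1 library left out the counts ran from 105 to 342 higher and from 167 to 399 lower, and without both libraries numbered 1 there were 101 higher. The share of calls that were higher was 44.9%, but 32.5% without WT library 1 and 29.7% without both libraries numbered 1.

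Collagen genes called (3 higher, 1 lower) became 6 higher with DESeq2, 1 and 0 with either FPKM fit, and 12 higher with no filter. There were 0 lower at a mean of at least 1 CPM and 0 lower without both libraries numbered 1. With 1 library left out they ran from 1 to 10 higher and from 0 to 1 lower. The 4 companion lists (2 higher, 1 lower) became 6 and 2 with DESeq2, 0 higher with either FPKM fit, 7 higher with no filter, and 0 to 3 higher with 1 library left out. They gave 0 higher without both libraries numbered 1. The cause was not tested.

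Whether replicate numbers pair the libraries was not settled by these values. Deviations of libraries with the same number correlated at 0.0172, 0.184 and 0.0325 over all tested genes. cKO 2 correlated best with WT 2 and cKO 3 with WT 3, but cKO 1 correlated best with WT 3 (0.157). Over the collagen genes alone libraries with the same number correlated at -0.051, 0.516 and 0.151. With the replicate block, 10 collagen genes were higher (5 fibrillar, 2 collagen IV and 3 others) and 1 lower, and over all genes 324 and 372.

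Uncalled values near 0 changed sign. Itgb1 stood at -0.0183 with library totals alone and at -0.0360 without both libraries numbered 1, where Serpinh1 stood at -0.0928. With 1 library left out, log2 fold changes ran from -0.28 to 0.0509 for Col4a1, -0.21 to 0.0866 for Col4a2, -0.19 to 0.0457 for Col18a1, -0.12 to 0.20 for Col8a1, -0.34 to 0.20 for Col4a3 and -0.0565 to 0.0501 for Itgb1. Low counts limit Col8a1, Col9a1, Col10a1 and Col19a1.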
